A study of Nematostella vectensis with 6 samples.

Results

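Among the 24525 gene models counted in the starlet sea anemone Nematostella vectensis, 239 were well expressed and had between 2 and 4 times less RNA in animals caught in the act of pinching off a clone than in steady-state animals. They were chosen from the counts themselves. Counts were expressed as CPM (counts per 1000000 counts of the library, with the column sum as denominator), and 9655 gene models were eligible because their mean over the 6 libraries was at least 10 CPM and they were not among the 200 most abundant. Of these, 793 (8.21%) had their highest pinching library below their lowest steady-state library, and the 239 were those whose steady-state mean was at least 2 and under 4 times their pinching mean. The direction and the size of the difference were therefore fixed by the choice and are given as a description, with no test.

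Bulk RNA sequencing was done on 6 libraries, 3 of pinching animals (labelled as active asexual reproduction) and 3 of steady-state animals. Both groups were kept in substrate, and the only label on their genotype names the published genome of the species, with no age given. The tissue label is physa for every library, whereas the extraction protocol describes lysing whole animals, and the methods speak of pooled individuals whose stage of fission was not known. The authors' discussion describes expression measured where the column constricts and detaches, and names as a limitation that only this tissue was isolated. The design text also mentions 3 time points that no library is tied to. Replicates may thus be pools of animals, and the spread between them is only the spread between libraries.

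Nematostella lives burrowed in sediment, and the physa is the bulb-like end of its body column, opposite the mouth. In transverse fission the column constricts above the physa, the constriction deepens until the aboral piece comes away, and that piece then forms a new head. Polyps are made of several cell types, such as stinging cells, gland cells, muscle, neurons and, in the mesenteries, germ cells. In a bulk library, fewer cells of a type and less RNA per cell cannot be told apart. The RefSeq gene table of the species gave a name for none of the 24525 identifiers, so the functions of the members, the pathway lists, the check of the tissue by its markers and the sequences are not given here, and only 2 members are called by identifier.

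The libraries held between 26381086 and 27343077 counts in the pinching group and between 22423447 and 23818796 counts in the steady-state group. Any 2 libraries differed by at least 26.9 times the variance that counting alone would give (chi-square per degree of freedom), so none was a repeat of another. Steady-state replicate 3 stood furthest from the rest, with a mean correlation of 0.838 with the pinching libraries and 0.918 with the other steady-state libraries over the log2 CPM of the eligible gene models. Its 10 most abundant gene models took 12.3% of its counts, against 7.98% to 9.94% elsewhere. Without it the rule found 204 gene models, 169 of them among the 239.

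The members ranged in mean level from 10.2 CPM to 487 CPM, with a median of 24.7 CPM against 30.1 CPM over all eligible gene models. Between 10 and 20 CPM there were 98 members, between 20 and 50 CPM there were 77, between 50 and 100 CPM there were 41, and 23 lay higher. Summed over the members, pinching replicates 1, 2 and 3 had 6218.5, 5443.4 and 6202.4 CPM, and steady-state replicates 1, 2 and 3 had 14390.1, 14835.9 and 17498.1 CPM. The members thus held 0.544% to 0.622% of all counts in pinching libraries, against 1.44% to 1.75% in steady-state libraries. Of the members, 214 had at least 100 counts in every library.

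The steady-state mean was 2.61 times the pinching mean in the median member, with the middle part of the members between 2.26 and 3.08 times (quartiles). The members thinned out towards the larger ratios, with 109 between 2 and 2.5 times, 65 between 2.5 and 3 times, 41 between 3 and 3.5 times and 24 above that. Over all eligible gene models the same ratio had a median of 0.918 and quartiles of 0.785 and 1.1. The members had median ratios of 2.56 at 10 to 20 CPM and 2.66 at 20 to 50 CPM. The medians were 2.52 at 50 to 100 CPM and 2.695 above 100 CPM. The rule kept only ratios of at least 2 and under 4, so these medians could move little with the level. The limits of the rule cut through a continuous range. The nearest values were 2.007 inside and 1.996 outside the lower limit of the ratio, 3.97 inside and 4.02 outside the upper limit, and 10.2 CPM inside and 9.95 CPM outside the limit on the mean. No gene model was left out for being among the 200 most abundant alone.

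**Figure D1:**
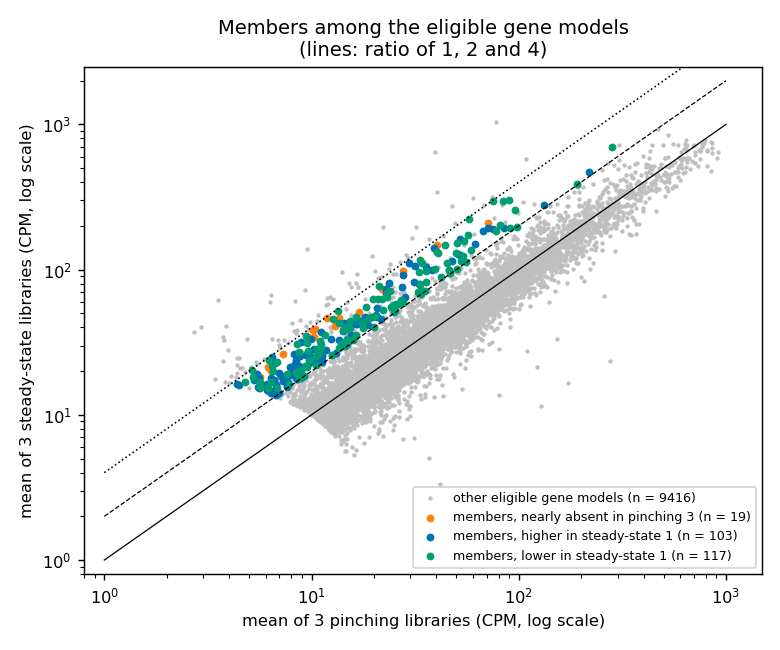
Mean CPM of the 3 pinching libraries (horizontal, log scale) against mean CPM of the 3 steady-state libraries (vertical, log scale) for the 9655 eligible gene models, with the 239 members coloured by the profiles described in the text. Lines mark ratios of 1, 2 and 4, and the members fill the band between 2 and 4 from about 10 CPM to 487 CPM, while most gene models lie along the line of equality.

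How far apart the groups lay differed more than the ratio of the means shows. The lowest steady-state library was on median 1.24 times the highest pinching library. It was at least 1.5 times as high in 54 members and at least 2 times as high in 9, and it was within 1.1 times in 41. The closest member had a quotient of 1.001, and the closest gene model outside, of 98 left out only because their groups overlapped, had one of 0.9985.

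The member with the clearest separation was NV2g014751000.1. It had 8.87, 7.60 and 9.11 CPM in pinching replicates 1, 2 and 3, against 25.6, 31.9 and 34.0 CPM in steady-state replicates 1, 2 and 3. The libraries of each group lay close together, at 8.52 ± 0.813 CPM in pinching and 30.5 ± 4.37 CPM in steady-state libraries (SD, n = 3 each), and the lowest steady-state library was 2.81 times the highest pinching library. Pinching over steady-state, its log2 fold change was -1.88 ± 0.174 (standard error) in edgeR's quasi-likelihood fit.

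The most abundant member, NV2g022508000.1, had 247, 261 and 336 CPM in the pinching libraries, against 375, 904 and 802 CPM in the steady-state libraries. The groups did not overlap, but steady-state replicate 1 lay much nearer to the pinching libraries than to the other 2 steady-state libraries. Its means were 281 ± 47.8 CPM in pinching and 694 ± 281 CPM in steady-state libraries (SD, n = 3 each), which gave a log2 fold change of -1.35 ± 0.336 (standard error).

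The member that came next after NV2g014751000.1 in separation was also even among the pinching libraries. It had 39.99, 40.04 and 41.4 CPM in pinching libraries, against 110, 179 and 111 CPM in steady-state libraries. The third had 25.2, 17.9 and 28.2 CPM in pinching libraries, against 87.9, 73.7 and 82.8 CPM in steady-state libraries. It was thus more even among steady-state than among pinching libraries. The smallest spread among pinching libraries belonged to another abundant member, at 191, 188 and 191 CPM in pinching libraries, against 280, 448 and 433 CPM in steady-state libraries.

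The rule says nothing of the order of libraries inside a group, and this order divided the members sharply. Steady-state replicate 1 was either well above or well below the other steady-state libraries and seldom level with them. Its CPM was at least 1.3 times the mean of steady-state replicates 2 and 3 in 104 members and lower by at least the same factor in 95, and it lay within 10% of that mean in 10. In percent, 4.18% of the members lay that close, against 41.2% of the eligible gene models. The quartiles of this quotient were 0.548 and 1.64 in the members and 0.870 and 1.12 in the eligible gene models. Because the rule favours gene models with a large difference between groups, a wider spread is partly built into the choice, and this was not tested apart.

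**Figure D2:**
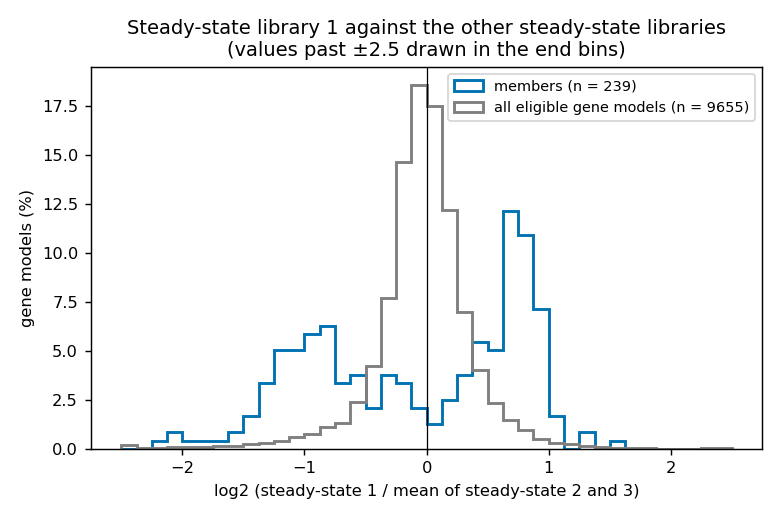
Distribution of the log2 quotient of steady-state replicate 1 over the mean of steady-state replicates 2 and 3, as a percentage of the 239 members (blue) and of the 9655 eligible gene models (grey). The eligible gene models form a single peak around 0, whereas the members form a pair of peaks, one on each side of it, with few members between.

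On this order the members were described in 3 profiles, drawn after the values had been seen. The first holds 19 members whose level in pinching replicate 3 was under 25% of the mean of pinching replicates 1 and 2. The second holds 103 other members in which steady-state replicate 1 lay above the mean of steady-state replicates 2 and 3, and the third holds 117 in which it lay below. Since the profiles were set by these values, they carry no test.

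The 19 members of the first profile were nearly absent from pinching replicate 3. Its level was on median 2.92% of the mean of pinching replicates 1 and 2, with a lowest value of 0.388%, and 15 of the 19 lay under 10%. The next member outside the profile stood at 26.1%, so its edge is not a gap. The most abundant of the 19 had 152, 58.8 and 2.52 CPM in pinching replicates 1, 2 and 3, against 290, 152 and 185 CPM in steady-state replicates 1, 2 and 3. In this member pinching replicate 1 and steady-state replicate 2 were level, so that its groups were barely apart. Another, close to the middle of the 19 in level, had 22.6, 8.27 and 0.183 CPM in pinching libraries, against 57.3, 25.4 and 34.2 CPM in steady-state libraries. The lowest of all had a single count in pinching replicate 3, and at least 136 counts were found for each of the 19 in every other library.

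The 19 also shared much of the order of the other libraries. Steady-state replicate 1 was their highest steady-state library in 19 of 19, and that of 2611 of the 9655 eligible gene models. Pinching replicate 1 was above pinching replicate 2 in 16. Exactly the order steady-state 1, 3, 2 and then pinching 1, 2, 3, from high to low, was shown by 13. The rule had put every steady-state library above every pinching library, and the profile was drawn by a low pinching replicate 3. These 19 were thus free mainly in the order of steady-state libraries and in that of pinching replicates 1 and 2. Scaled to their own mean over the 6 libraries, their median levels were 0.909, 0.397 and 0.0215 in pinching replicates 1, 2 and 3, against 2.17, 1.09 and 1.29 in steady-state replicates 1, 2 and 3. Pinching replicate 1 came within reach of steady-state replicate 2, and the lowest steady-state library was on median 1.19 times the highest pinching library.

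The large ratios of the first profile owed part of their size to the one library in which its genes were scarce. Their median ratio of steady-state to pinching mean was 3.36 with all libraries and 2.33 without pinching replicate 3. Without it, 17 of the 19 had a steady-state mean at least 2 times the pinching mean, and the ratios ran from 1.96 to 2.71. The rule had used these libraries too, and the profile was drawn by a low pinching replicate 3. The direction of the fall and that of the remaining difference were thus fixed by the choice and are given as a description.

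The second profile also kept a common order in most of its members. Of these 103, 93 were highest in steady-state replicate 1 among steady-state libraries and 94 were lowest in steady-state replicate 2. The full order of steady-state replicates 1, 3, 2 from high to low held in 86 of them, or 83.5%, against 13.2% of the eligible gene models, although the profile was drawn with steady-state replicate 1 on the high side. The pinching libraries were ordered as well, with pinching replicate 3 highest in 76 and pinching replicate 2 lowest in 83. Both orders together, steady-state 1, 3, 2 and pinching 3, 1, 2, were shown by 63 of the 103 and by 176 of the 9655 eligible gene models, or 1.82%.

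Scaled to their own mean, the median levels of the second profile were 0.564, 0.413 and 0.694 in pinching replicates 1, 2 and 3, against 1.93, 0.888 and 1.49 in steady-state replicates 1, 2 and 3. Steady-state replicate 1 was on median 2.15 times steady-state replicate 2, with quartiles of 1.73 and 2.51. A member in the middle of the profile by level had 11.2, 6.66 and 11.5 CPM in pinching libraries, against 39.4, 13.5 and 25.1 CPM in steady-state libraries. Here steady-state replicate 2 stood just above the pinching libraries while steady-state replicate 1 stood far above them. The most abundant members of this profile were less typical of it, since the first had 111, 304 and 239 CPM in pinching libraries, against 538, 425 and 450 CPM in steady-state libraries. The next had 78.1, 163 and 157 CPM in pinching libraries, against 308, 290 and 232 CPM in steady-state libraries. In this pair of abundant members the low library was pinching replicate 1 and the steady-state libraries were nearly even.

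The 117 members of the third profile were more even among pinching than among steady-state libraries. Their median coefficient of variation (SD over mean) was 0.150 among pinching libraries and 0.410 among steady-state libraries. It was 0.302 and 0.367 in the second profile, and 0.102 and 0.161 over the eligible gene models. Scaled to their own mean, the median levels of the third profile were 0.585, 0.513 and 0.597 in pinching replicates 1, 2 and 3, against 0.899, 1.54 and 1.76 in steady-state replicates 1, 2 and 3. The highest steady-state library was replicate 3 in 72 and replicate 2 in 45, and steady-state replicate 1 was the lowest in 94. Because the profile was drawn by a low steady-state replicate 1, this order and the steady-state spread were partly built in. Members nearly absent from pinching replicate 3 were already in the first profile, so the pinching spread was partly set too. A member in the middle of the profile by level had 17.5, 18.6 and 21.0 CPM in pinching libraries, against 25.8, 78.3 and 34.6 CPM in steady-state libraries. In it a single steady-state library carried much of the difference, and the member with the widest spread among steady-state libraries showed this further, with 8.95, 9.36 and 10.1 CPM in pinching libraries, against 10.8, 18.4 and 75.2 CPM in steady-state libraries.

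**Figure D3:**
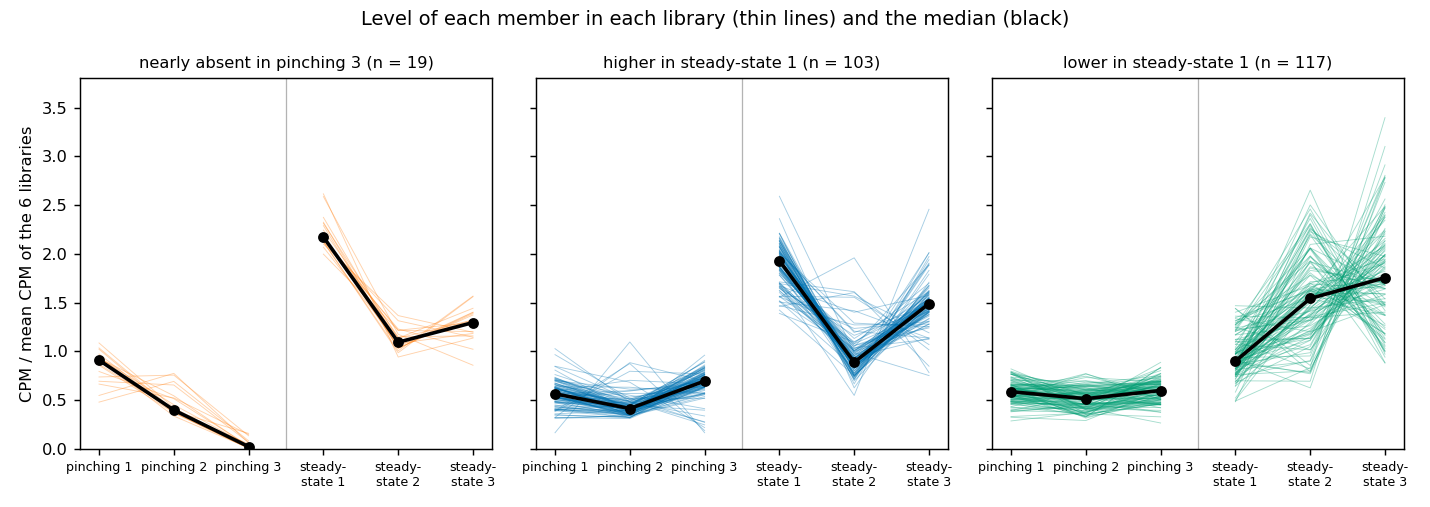
Level of every member in every library, as CPM divided by its own mean over the 6 libraries (vertical), for the 3 profiles, with thin lines for single members and black points for the median. The lines only join values of one gene model, since replicates have no order. Members of the first profile come close to 0 in pinching replicate 3, and those of the second peak in steady-state replicate 1 at a median of 1.93. Those of the third are flatter on the pinching than on the steady-state side, where they are lowest in steady-state replicate 1, at a median of 0.899.

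The third profile was also on median the more abundant and the more widely separated. Its median mean level was 32.6 CPM, against 24.7 CPM in the first profile and 17.9 CPM in the second. The lowest steady-state library was on median 1.32 times the highest pinching library in the third profile, 1.18 times in the second and 1.19 times in the first. Of the 54 members in which it was at least 1.5 times as high, 40 belonged to the third profile, 11 to the second and 3 to the first. At 2 times or more the profiles differed little, with 5 in the third, 4 in the second and 0 in the first. Within 1.1 times there were 17, 21 and 3. The ratio of means in the third profile was similar, with a median of 2.47, against 2.58 in the second profile.

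Over all members, the coefficient of variation was on median 0.242 among pinching and 0.391 among steady-state libraries, against 0.102 and 0.161 over the eligible gene models. Pinching replicate 2 was the lowest pinching library in 64.0% of the members, whereas it was the lowest in 20.7% of the eligible gene models and the highest in 50.8%. Pinching replicate 3 was the highest pinching library in 56.1% of the members and in 24.8% of the eligible gene models. Steady-state replicate 3, the library furthest from the rest, was the highest steady-state library in 80 members, or 33.5%, against 42.2% of the eligible gene models.

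Since the same libraries chose the members, the difference was also read in libraries left out of the choice. For each of the 9 ways to set 1 pinching and 1 steady-state library aside, the rule was applied to the other 4 libraries, and the ratio of the 2 libraries set aside was taken after adding 0.5 CPM to each. The rule then chose between 206 and 369 gene models, of which between 154 and 190 were members. Each choice thus also held gene models that were not members, and the ratios are not those of the members alone. The chosen gene models had a median ratio of 2.41 to 2.68 in the 4 libraries used. In the libraries set aside the median ratio of steady-state over pinching of the chosen gene models ran from 1.41 to 3.22, with a median of 1.70 over the 9 pairs. Between 76.6% and 95.1% of the chosen gene models were lower in the pinching library set aside than in the steady-state library set aside, whereas between 28.3% and 45.6% of the eligible gene models were.

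The ratio that was found again depended on the library. It was between 1.49 and 1.66 when steady-state replicate 1 was set aside, between 1.41 and 2.00 for steady-state replicate 2 and between 2.14 and 3.22 for steady-state replicate 3. Over the eligible gene models the same ratio ran from 0.861 to 0.959. The 9 pairs share libraries and are not independent, so no p is given. In 8 of the 9 pairs the median ratio in the libraries set aside was smaller than in those used for the choice, the exception being pinching replicate 2 with steady-state replicate 3.

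**Figure D4:**
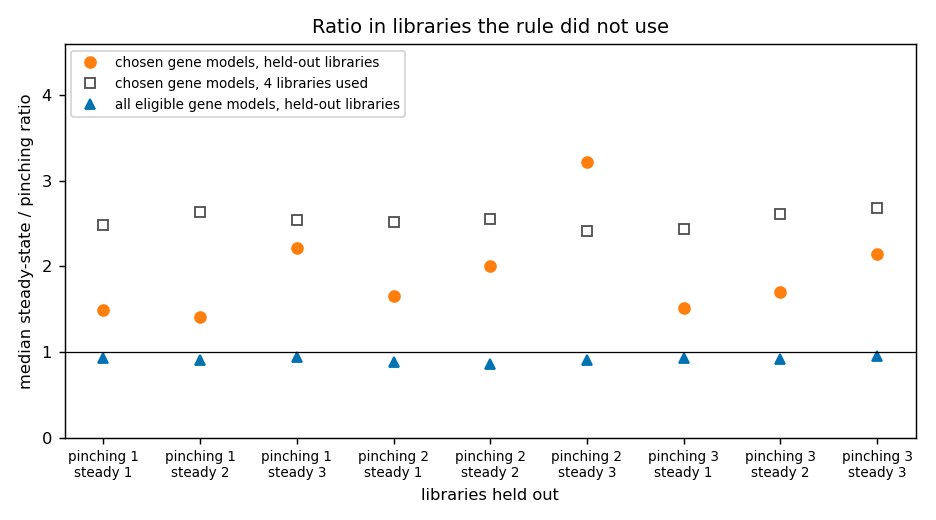
Median ratio of steady-state over pinching CPM (vertical) for each pair of libraries set aside (horizontal), for the gene models chosen on the other 4 libraries, read in the libraries set aside (circles) and in those used (squares), and for all eligible gene models in the libraries set aside (triangles). All circles lie above 1, between 1.41 and 3.22, and all triangles lie below 1.

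Another property that the rule did not use is the number inside the identifier. Of the 239 members, 26 stood in 13 pairs of consecutive numbers, so 10.9% of the members had another member as a neighbour in number, against 1.58% of the other eligible gene models. No source used here says whether consecutive numbers are neighbours in the genome. The members of a pair had much alike profiles. In 11 of the 13 pairs both belonged to the same profile, 6 pairs in the second, 4 in the third and 1 in the first, whereas 42.9% of all 28441 pairs of members shared a profile. Over the log2 CPM of the 6 libraries the pairs had a median correlation of 0.953, against 0.719 over all pairs of members. At least 0.9 was reached by 10 of the 13, against 22.7% of all pairs of members. Among all pairs within a profile, the median correlation was 0.984 in the first, 0.943 in the second and 0.871 in the third. How much of the likeness is that of a shared profile was not tested apart.

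In several pairs the values were nearly the same gene for gene. One pair of the second profile had 60.8, 51.2 and 90.5 CPM in pinching libraries, against 251, 112 and 191 CPM in steady-state libraries, for the lower number. The higher number of this pair had 70.9, 55 and 86.8 CPM in pinching libraries, against 284, 113 and 187 CPM in steady-state libraries. The only pair of the first profile shared the near absence from pinching replicate 3, with 13.8, 5.09 and 0.0366 CPM in pinching libraries, against 29.6, 13.9 and 18.5 CPM in steady-state libraries for the lower number. Its higher number had 15.1, 6.55 and 0.183 CPM in pinching libraries, against 35.5, 16.8 and 26.2 CPM in steady-state libraries. The most abundant pair belonged to the third profile and was highest in steady-state replicate 2, at 396 and 430 CPM. How the counts treated reads shared by overlapping or near-identical gene models is not stated in the sources used here, and its part in these likenesses was not tested.

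**Figure D5:**
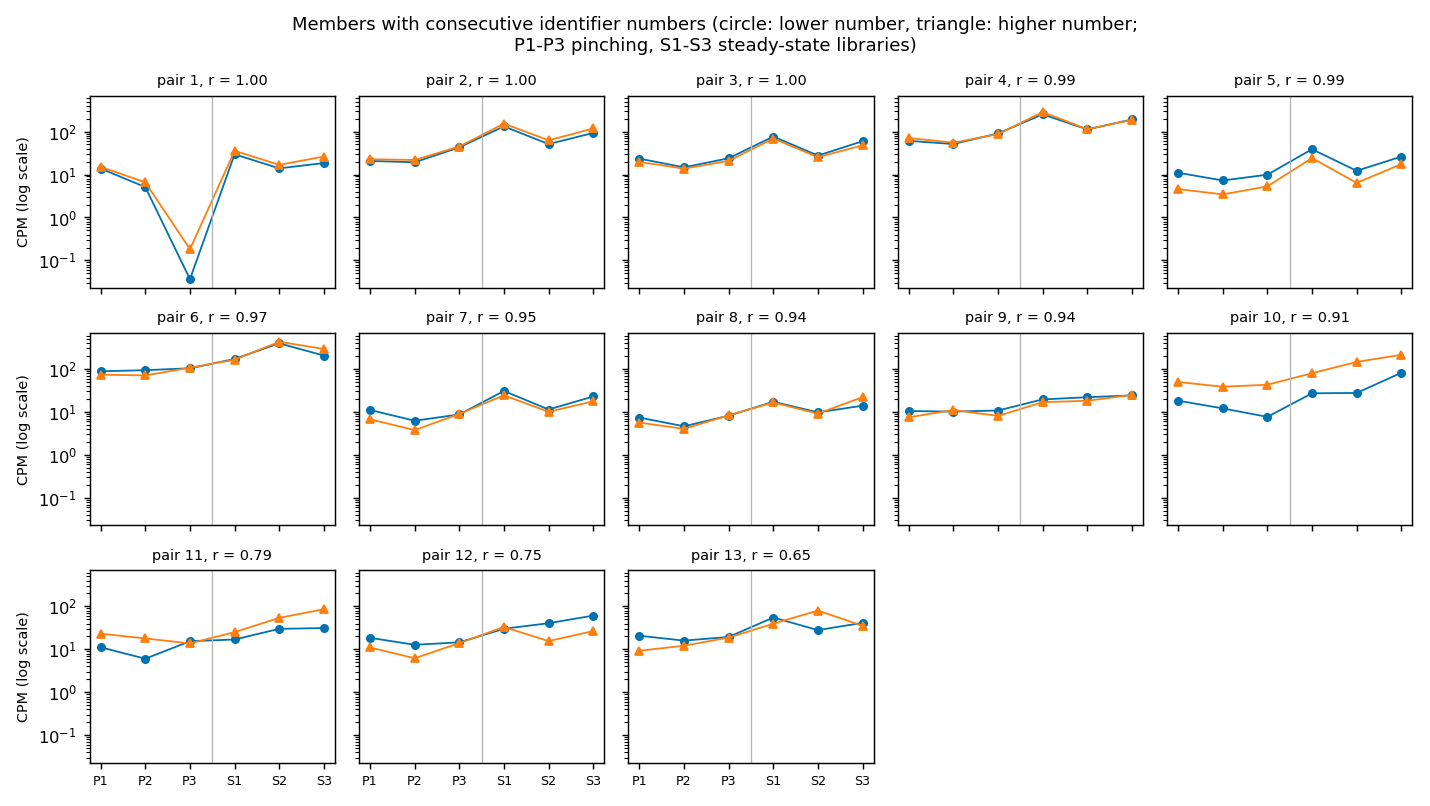
CPM (vertical, log scale) of both members of the 13 pairs with consecutive identifier numbers in the 3 pinching (P1 to P3) and 3 steady-state libraries (S1 to S3), with the correlation over the 6 libraries above each panel. In 10 of the 13 panels the correlation is at least 0.9, and the first panel shows the pair that drops to 0.0366 and 0.183 CPM in pinching replicate 3.

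In the fit across all 21345 gene models with at least 3 counts, edgeR's quasi-likelihood test called 13 members lower in pinching animals (adjusted p up to 0.1, Benjamini-Hochberg), where it called 0.15% of all gene models lower. With DESeq2's Wald test the count was 222 of the 239, against 5.8% of all gene models, and with limma-voom it was 11, against 0.108%. At an unadjusted p under 0.05 in edgeR's test there were 227 members, against 9.22% of all gene models. The rule used this contrast, so nothing is read from these counts beyond their description. The 13 were among DESeq2's 222. EdgeR called 0 gene models lower, members or not, when any 1 of the pinching libraries was left out. The same held without the steady-state library numbered 2. Without that numbered 3 it called 7 members among 16 gene models called lower, and without that numbered 1 it called 89 among 296. In these fits 215 to 236 members had an unadjusted p under 0.05, and the number over all gene models was not counted. DESeq2 called 173 to 227 members, among 495 to 1677 gene models called lower of all 21345.

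The profiles fared unequally. Of the 19 members nearly absent from pinching replicate 3, edgeR called 0 at the adjusted p and 7 at an unadjusted p under 0.05, and DESeq2 called 3. Of the second profile edgeR called 5 and DESeq2 102 of 103, and of the third edgeR called 8 and DESeq2 117 of 117. Over all 9655 eligible gene models edgeR called 27 lower and DESeq2 736. The log2 fold changes of all members in edgeR's fit ran from -2.05 to -1.03 with a median of -1.41, against a median of 0.08 over the eligible gene models. Their standard errors differed more, with a median of 0.903 in the first profile, 0.329 in the second and 0.311 in the third. Because the first profile was drawn by a low pinching replicate 3, a wide spread among its pinching libraries was built in. Its large standard errors and few calls are therefore given as a description.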

How the data were processed

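The authors aligned single reads of stranded mRNA libraries to the Nvec200 genome with STAR 2.7.3a, discarded reads with the same start and full identity, and deposited raw counts per gene model, 1 column per library. The methods name RSEM 1.3.0 for TPM values and Ensembl gene models, but do not say whether RSEM also made these counts. Whether the counting used strand is not given in the sources used here. Groups and replicate numbers came from the sample descriptions, and no unused column was present. CPM used column sums. Tests were fitted in R 4.3.3 on the 21345 gene models with at least 3 counts in total with edgeR 4.0.16 (TMM, group as the only term, cut-off 0.1 after Benjamini-Hochberg adjustment), and DESeq2 1.42.0 and limma 3.58.1 as alternatives. The filter and cut-off follow the study, which used DESeq2. EdgeR's standard errors were derived from the fold change and its F statistic. Scripts were tested on simulated counts. Correlations between gene models used log2 of CPM plus 0.5.

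The members, the tests and the lists were chosen with earlier results of these data known. The 2 identifiers printed follow a rule, the member with the highest mean CPM and the member with the highest quotient of its lowest steady-state to its highest pinching CPM, since 0 of the 24525 identifiers matched the table of gene names. Marker and pathway lists were therefore not analysed, and other members are given by value. Alternatives covered the scaling, the limits of the rule, the test, the filter, the replicate number as a block and leaving out each library.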

Additional observations from a re-analysis of the deposited data

How the results depend on the processing

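The rule found 258 gene models with TMM and 293 with DESeq2 size factors in place of column sums, 235 and 231 of them among the 239. It found 141 with a minimum of 20 CPM, and 204 to 315 with 1 library left out. EdgeR called 13 members lower, among 32 gene models called lower. The count moved to 222 among 1237 with DESeq2's Wald test and to 225 among 1040 with DESeq2 and the replicate number as a block. It moved to 37 among 87 with no filter beyond 1 count. With filterByExpr or at an adjusted p of 0.05 it was 0 among 0, although 225 members had an unadjusted p under 0.05 under filterByExpr. The number over all gene models at that unadjusted p was not counted. DESeq2 called its 222 without filterByExpr. Leaving out each library gave 0 to 89 members with edgeR, among 0 to 296 gene models called lower. With DESeq2 it gave 173 to 227 members, among 495 to 1677. There it was 212 among 1175 without the steady-state library numbered 1 and 219 among 1677 without that numbered 2. These DESeq2 fits, its block and the alternatives to the profiles were chosen after seeing the data. The cause was not tested. With the replicate block edgeR called 136 members, among 314 gene models called lower. Same-numbered libraries deviated from their group means with correlations of 0.0214, 0.206 and -0.0722 for numbers 1, 2 and 3, and pinching replicates 1 and 3 correlated best with another number, so the numbers were not taken as pairs. The median log2 fold change of members stayed between -1.48 and -1.29 in edgeR's fits with each scaling, with the replicate block and with each library left out, and in DESeq2's fit with all libraries. Members near another member in number rose to 43 within 2 numbers and 61 within 5, by construction. The profiles held 105 and 108 members led by steady-state replicate 1 with TMM and DESeq2 size factors against 103, and 17 nearly absent from pinching replicate 3 with TMM against 19. Few counts limit mainly the values of the near absent members in pinching replicate 3, where 9 of the 19 had under 20 counts.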

Other observations

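The near absence from pinching replicate 3 was not confined to members. Of the eligible gene models, 126, or 1.31%, had under 25% of the mean of pinching replicates 1 and 2 in pinching replicate 3, and 107 of them were not members. Scaled to their own mean, these 107 had median levels of 1.19, 0.522 and 0.0549 in pinching replicates 1, 2 and 3, against 1.92, 0.910 and 1.26 in steady-state replicates 1, 2 and 3. The order inside each group was that of the 19 members, but pinching replicate 1 lay above steady-state replicate 2. Pinching replicate 1 was above pinching replicate 2 in 92 of the 107, and steady-state replicate 1 was the highest steady-state library in 76. Of the 107, 28 had groups that did not overlap and a steady-state mean at least 4 times the pinching mean, 1 had no overlap and a ratio under 2, and 22 had a higher mean in pinching than in steady-state libraries. Their median ratio of steady-state to pinching mean was 2.30. Of all 9655 eligible gene models, 66 had no overlap and a ratio of at least 4, and 488 had no overlap and a ratio under 2.

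The order of libraries that marks the second profile was likewise found outside the members. Of the 176 eligible gene models with steady-state libraries in the order 1, 3, 2 and pinching libraries in the order 3, 1, 2, 113 were not members. Of these, 10 were lower in every pinching library by a ratio of means under 2, 0 were lower by 4 times or more, and 103 had overlapping groups or higher pinching levels.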
